A study of Rattus norvegicus with 9 samples.

Results

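The genes described here encode 5 potassium channel subunits, an accessory subunit and a chloride channel subunit of the renal tubule, namely Kcnj1, Kcnj10, Kcnj15, Kcnj16, Kcnq1, Kcne1 and Bsnd. They were found by the gene name that the array files give to each gene probe, which yielded 7 genes of 26115 gene names and 10 probes of 30367. At least 1 probe of 6 of the 7 genes was bright enough to be tested, and 9 of the 10 probes were. The arrays compared whole kidneys of Fisher F344 rats, all of which had 20 min of warm ischaemia before removal, as a model of donation after circulatory death (DCD). The 5 NP kidneys were not perfused. The 4 MSC kidneys were then perfused for 4 h at 4°C with Belzer solution (BS), a cold preservation fluid, supplemented with mesenchymal stromal cells (MSC) from the bone marrow of EGFP transgenic Sprague Dawley rats. Perfusion and the added cells thus came together and cannot be told apart between these groups. The labels are divided on the NP kidneys, whose treatment field calls them not perfused while their titles name perfusion with BS, and the name NP follows the treatment field and the study's methods.

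Tubule cells recycle potassium to keep sodium and chloride transport running. In the thick ascending limb, the channel encoded by Kcnj1 (ROMK) returns to the lumen the potassium that enters with sodium and chloride, and in the collecting duct it secretes potassium into urine. The basolateral channels built from Kcnj10, Kcnj15 and Kcnj16 set the membrane voltage of tubule cells, and chloride leaves through chloride channels that need the small subunit barttin, the product of Bsnd. Kcnq1 forms a voltage-gated channel whose opening is slowed by its partner Kcne1, and both of these, like Kcnj15 and Kcnj16, are also known from the proximal tubule, so the levels in whole kidney RNA do not belong to the distal nephron alone. Fewer cells of a type and less RNA per cell cannot be told apart in such RNA.

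Each probe is a single strand of 60 bases that reads 1 stretch of a transcript, and for Kcnj1 and Kcnq1 the stretch matters below because the probes of these genes differ in their values. On rat build rn4, as given in the array files, the 3 Kcnj1 probes lie in a row on the plus strand of chromosome 8, at 32161587 to 32161646, at 32161899 to 32161958 (252 bases further on) and at 32163190 to 32163248 (1231 bases further on). The first of them ends on a TAG stop codon, in capitals here, in a reading frame that holds no earlier stop in the probe. Of the other Kcnj1 probes the first 30 bases are shown.
Kcnj1 A_64_P067153: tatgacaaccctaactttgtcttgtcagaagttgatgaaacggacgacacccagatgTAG
Kcnj1 A_44_P470683, bases 1 to 30: cgtgttgatggaaacaaagtcattcaagga
Kcnj1 A_64_P395073, bases 1 to 30: gtgtgaaggtcttgtttcttcatttccata
The pair of Kcnq1 probes lies on the plus strand of chromosome 1, at 203802631 to 203802690 and, 837 bases further on, at 203803528 to 203803587. They are shown with the Kcne1 probe on the minus strand of chromosome 11 at 32344803 to 32344862, since the values of these probes varied together across the arrays.
Kcnq1 A_64_P094313: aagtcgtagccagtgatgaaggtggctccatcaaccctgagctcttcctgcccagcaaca
Kcnq1 A_42_P787920, bases 1 to 30: gttaagggcatcgcggtttctcccaggatc
Kcne1 A_44_P121280: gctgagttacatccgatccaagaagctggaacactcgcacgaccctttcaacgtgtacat
The basolateral channel and barttin probes lie on chromosome 10 at 100515861 to 100515920 (Kcnj16, plus strand), chromosome 11 at 35593977 to 35594036 (Kcnj15, plus strand), chromosome 13 at 88370332 to 88370391 (Kcnj10, plus strand) and chromosome 5 at 127542220 to 127542279 (Bsnd, minus strand). The Kcnj16 probe is shown because it alone separated the groups, and the Bsnd probe because its last 30 bases hold AATAAA, in capitals, the hexamer known as the polyadenylation signal.
Kcnj16 A_42_P833096, bases 1 to 30: caatatcttatctcctaagcacaacagatg
Kcnj15 A_64_P043816: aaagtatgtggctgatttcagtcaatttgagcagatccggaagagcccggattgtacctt
Bsnd A_64_P119022, bases 31 to 60: cggggcagAATAAAatgagacttcacgcct

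On the arrays the brightness of a probe is read after labelling with the dye Cy3. Levels are given here as log2 of that intensity after normalization between arrays, and differences as MSC minus NP on the same scale, so that 1 unit is a doubling. A level is compared between arrays for the same probe and never between probes. Between 65.6% and 74.3% of the gene spots were well above background on each array, their median raw brightness was 577 to 917 against 217 to 237 for the median negative control, and no gene spot was saturated. The arrays were on 2 slides, the first with NP replicates 1, 2 and 3 and MSC replicates 1 and 2, the second with NP replicates 4 and 5 and MSC replicates 3 and 4. The study's methods describe removal of the left kidney and the labels do not number the animals, so the p-values measure the spread between these arrays. The mean NP level was 18.25 for Umod, the main protein of the thick ascending limb, and 18.10 for Aqp2, the water channel of principal cells. Of the tubule segment markers listed below, Pvalb of the distal convoluted tubule did not pass the filter on low signal and the others did.

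None of the 9 channel probes passed an FDR under 0.05 together with a fold change over 1.5 in limma, and neither did any of the 15635 probes tested (0%), the smallest FDR of which was 0.105. At an unadjusted p under 0.05, 4 of the 9 were higher in MSC and 0 lower. They belong to Kcnj16, Kcnq1, Kcne1 and Kcnj1, and were 2 without NP replicate 3, MSC replicate 2 or MSC replicate 4. Over all probes, 6.51% were higher and 5.19% lower by that measure. In all, 7 of the 9 were higher and 2 lower in MSC, while 48.7% of all probes were higher and the median difference of all probes was -0.0048. With 9 probes of 6 genes, probes of the same gene share their target, and the counts describe these arrays only.

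**Figure D1:**
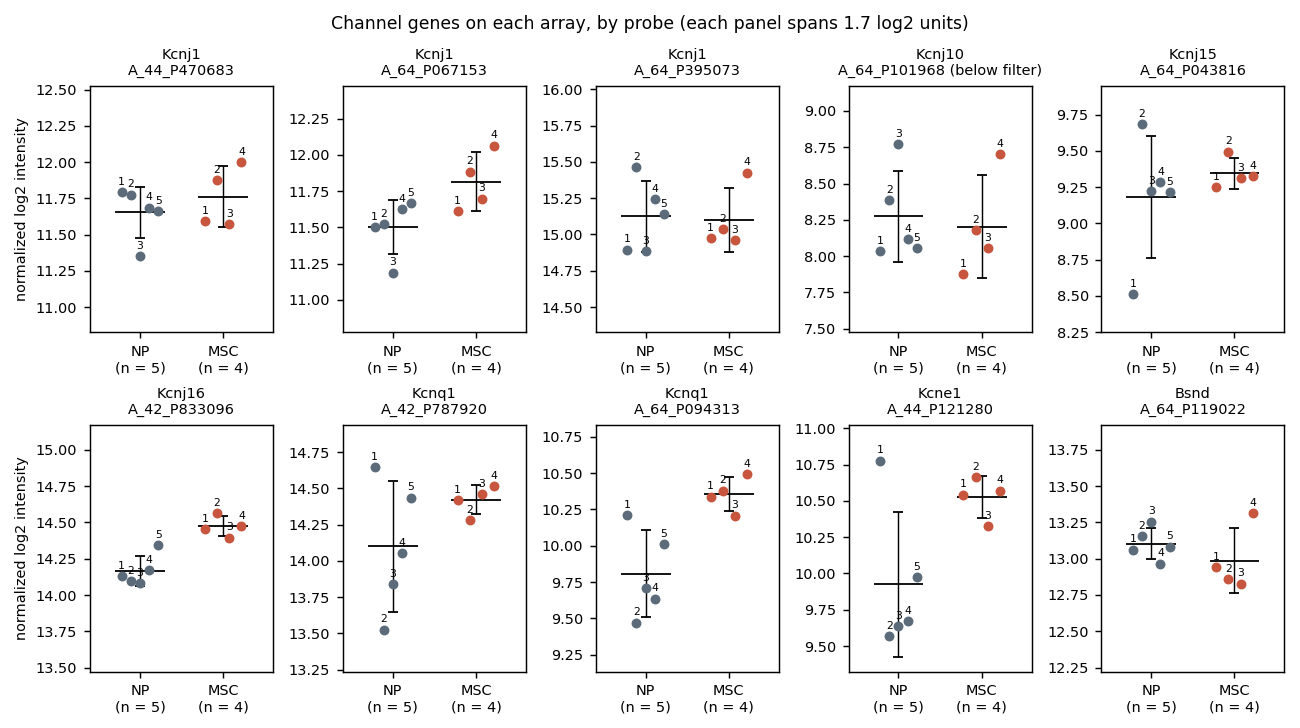
Normalized log2 intensity (vertical axis) of each probe of the channel genes on the 5 NP arrays (grey) and the 4 MSC arrays (red). Points carry the replicate number, long horizontal lines are group means and bars are 1 SD, and each panel spans the same height. Only Kcnj16 has no overlap between the groups, and NP replicate 1 is the highest NP array for Kcne1 and both Kcnq1 probes and the lowest for Kcnj15.

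Kcnj1, the apical potassium channel, gave a different value with each of its 3 probes. The probe at the stop codon had levels of 11.50, 11.52, 11.19, 11.62 and 11.67 on NP replicates 1 to 5 and of 11.61, 11.88, 11.70 and 12.06 on MSC replicates 1 to 4. MSC replicates 2, 3 and 4 were above every NP array, and MSC replicate 1 lay within the NP range. The difference was 0.31 (SE 0.12), with an unadjusted p of 0.0311 and an FDR of 0.393 in limma, and an exact two-sided permutation p of 0.0397. It was 0.34 within the first slide and 0.23 within the second. This probe had 1 spot on each array, against 2 for the other channel probes. In limma its unadjusted p was 0.0658 without NP replicate 3, 0.0735 without MSC replicate 2 and 0.0984 without MSC replicate 4. With median scaling that p was 0.115, and with array weights the difference was 0.23 (p 0.0790). The middle Kcnj1 probe had levels of 11.79, 11.78, 11.35, 11.69 and 11.66 on the NP arrays and of 11.60, 11.88, 11.57 and 12.00 on the MSC arrays. The groups overlapped here, with a difference of 0.11 (SE 0.12, 95% interval -0.17 to 0.38), although this probe varied across the 9 arrays much as the first did (Pearson's r 0.812). Single arrays moved this difference, which was 0.028 without MSC replicate 4, 0.031 without NP replicate 3, 0.068 without MSC replicate 2 and 0.17 without MSC replicate 3.

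The last Kcnj1 probe had levels of 14.90, 15.46, 14.89, 15.24 and 15.14 on the NP arrays and of 14.97, 15.04, 14.96 and 15.43 on the MSC arrays. All MSC values fell inside the NP range, and the difference was -0.026 (SE 0.14, 95% interval -0.35 to 0.30). The probe is assigned by the files to another Kcnj1 transcript record than the first 2 probes, and its r with the probe at the stop codon was 0.462 over the 9 arrays. The value for Kcnj1 thus depended on the probe, and the 95% intervals of the 3 probes overlap. The difference between the probes was not tested.

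Kcnj16, the subunit that pairs with Kcnj10 or Kcnj15 in basolateral channels, showed the smallest p of the 7 genes. Its levels were 14.13, 14.10, 14.08, 14.17 and 14.34 on NP replicates 1 to 5 and 14.46, 14.56, 14.40 and 14.48 on MSC replicates 1 to 4. Every MSC array was above every NP array, and NP replicate 5 was the closest to them. Of all probes tested, 3.17% had all MSC arrays above all NP arrays. The difference was 0.31 (SE 0.079, 95% interval 0.13 to 0.48), which is 1.24-fold, with an unadjusted p of 0.0030 and an FDR of 0.333 in limma. The exact two-sided permutation p was 0.0159, where 0.00794 is the smallest that 5 against 4 arrays allow. It was 0.41 within the first slide and 0.18 within the second.

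Kcnj15, which forms such channels in the proximal tubule, had levels of 8.51, 9.68, 9.22, 9.28 and 9.21 on the NP arrays and of 9.25, 9.50, 9.31 and 9.32 on the MSC arrays. The MSC arrays lay within the NP range, which was stretched by a low NP replicate 1 and a high NP replicate 2. The difference was 0.16 (SE 0.19, 95% interval -0.27 to 0.59). Without NP replicate 1 it was -0.0092.

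Kcnj10, the main basolateral potassium channel of the distal convoluted tubule, was close to background. Its probe was well above background on 2 of 5 NP arrays and 0 of 4 MSC arrays and did not pass the filter. Levels were 8.03, 8.39, 8.77, 8.12 and 8.06 on the NP arrays and 7.87, 8.18, 8.05 and 8.70 on the MSC arrays, and no fold change is given for values so near to background. A difference was not detectable at this signal.

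Kcnq1 was read by 2 probes. The probe with the larger variance had levels of 10.21, 9.47, 9.71, 9.64 and 10.01 on NP replicates 1 to 5 and of 10.34, 10.38, 10.21 and 10.49 on MSC replicates 1 to 4. MSC replicates 1, 2 and 4 were above every NP array, and MSC replicate 3 was level with NP replicate 1. The difference was 0.55 (SE 0.15, 95% interval 0.22 to 0.88), which is 1.46-fold, with an unadjusted p of 0.0040 and an FDR of 0.333 in limma, and an exact two-sided permutation p of 0.0238. It was 0.56 within the first slide and 0.53 within the second.

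The second Kcnq1 probe had levels of 14.65, 13.53, 13.84, 14.05 and 14.44 on the NP arrays and of 14.42, 14.28, 14.46 and 14.52 on the MSC arrays. NP replicate 1 was above all MSC arrays, and the groups overlapped. The difference was 0.32 (SE 0.20, 95% interval -0.13 to 0.77), with an unadjusted p of 0.148. It was 0.18 without NP replicate 2 and 0.45 without NP replicate 1, the latter with an unadjusted p of 0.0259 in limma. The Kcnq1 probes had r 0.854 with each other over the 9 arrays, and in both NP replicate 1 was the highest and NP replicate 2 the lowest NP array.

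Kcne1, the accessory subunit of Kcnq1, had levels of 10.78, 9.57, 9.64, 9.67 and 9.98 on NP replicates 1 to 5 and of 10.54, 10.67, 10.33 and 10.57 on MSC replicates 1 to 4. NP replicate 1 was above every MSC array, and the other 4 NP arrays were below all of them. The difference was 0.60 (SE 0.23, 95% interval 0.094 to 1.11), which is 1.52-fold and the largest of the 9 probes, with an unadjusted p of 0.0247 and an FDR of 0.382 in limma, and an exact two-sided permutation p of 0.0635. Without NP replicate 1 it was 0.82, with an unadjusted p of 5.1e-05 and an FDR of 0.132 in limma. The unadjusted p was 0.0513 to 0.0626 when NP replicate 2, 3 or 4 or MSC replicate 1, 2 or 4 was left out. Within the slides the difference was 0.61 (p 0.178) and 0.63 (p 0.0053).

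Bsnd, the chloride channel subunit barttin, had levels of 13.06, 13.16, 13.26, 12.97 and 13.08 on the NP arrays and of 12.94, 12.86, 12.83 and 13.31 on the MSC arrays. MSC replicates 1, 2 and 3 were below every NP array, and MSC replicate 4 was above every NP array. The difference was -0.12 (SE 0.11, 95% interval -0.37 to 0.13). Without MSC replicate 4 it was -0.23, with an unadjusted p of 0.0316 in limma, and it was -0.063 without MSC replicate 3 and -0.075 without MSC replicate 2. The slides differed in direction, with -0.26 on the first and 0.047 on the second, where MSC replicate 4 lies.

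**Figure D2:**
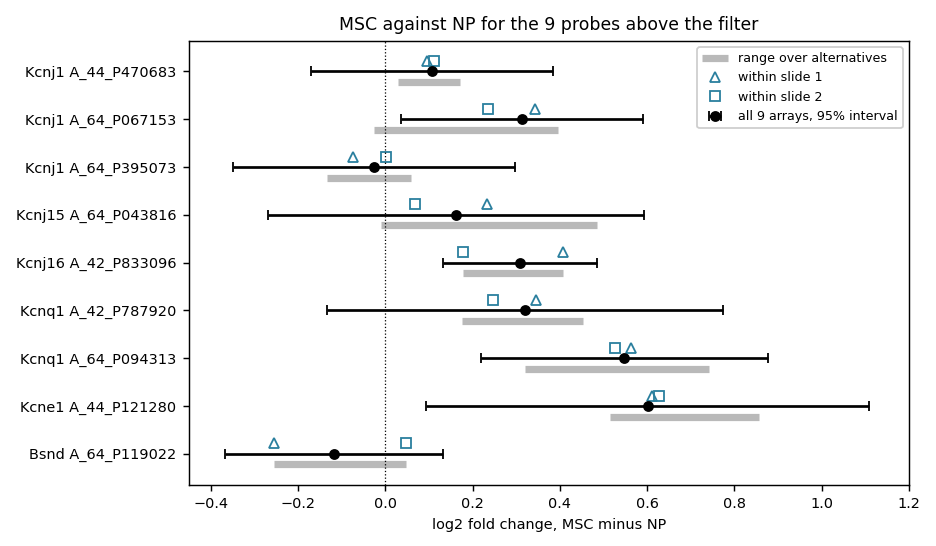
Difference between MSC and NP (horizontal axis, log2) for the 9 probes above the filter. Black points and lines are the fit over all 9 arrays with its 95% interval, blue symbols the differences within each slide, and grey bars the range over the alternative settings (for the probe of largest variance of a gene this includes settings that average its probes or take another of them). The intervals of Kcnj16, of 1 Kcnq1 probe, of Kcne1 and of 1 Kcnj1 probe lie above 0, while Bsnd has opposite signs within the slides.

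Among subunits that form channels together, Kcne1 and the first Kcnq1 probe had r 0.934 across the 9 arrays, r 0.899 for the deviations from the group means, and r 0.977 without NP replicate 1. For Kcne1 and the second Kcnq1 probe these were lower, with r 0.835, r 0.794 for the deviations and r 0.797 without NP replicate 1. Kcnj16 and Kcnj15 had r 0.259, r 0.047 for the deviations and r -0.11 without NP replicate 1. Kcnj16 had r 0.655 with Kcne1, r 0.213 for the deviations, and r 0.975 without NP replicate 1, which was above all MSC arrays for Kcne1 and inside the NP range for Kcnj16. Kcnj15 and the first Kcnq1 probe had r -0.271, r -0.819 for the deviations and r -0.264 without NP replicate 1, the lowest NP array for Kcnj15 and the highest for Kcnq1. These correlations are descriptions over 9 arrays that share the difference between the groups and the normalization.

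**Figure D3:**
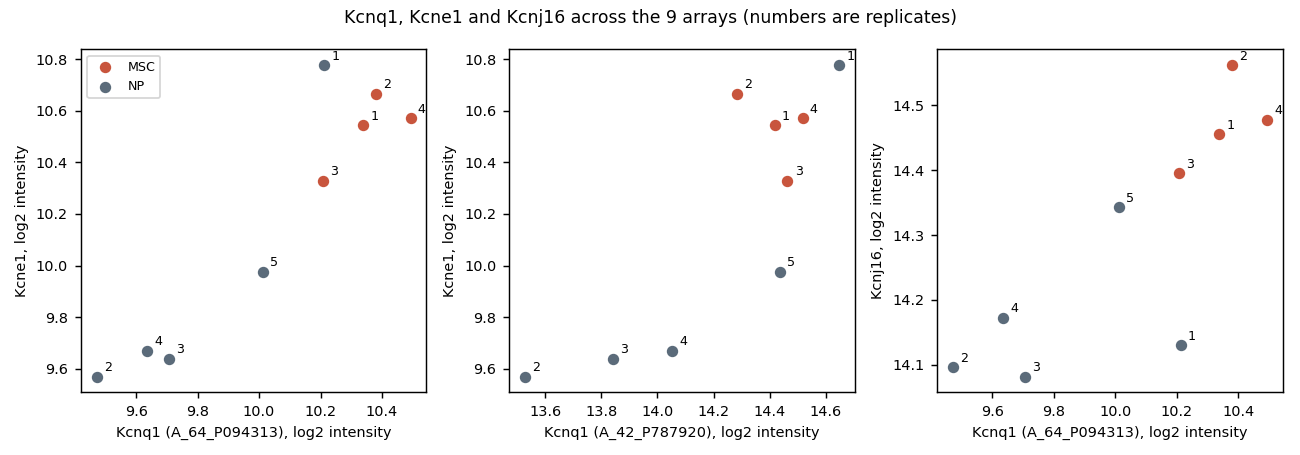
Level of Kcne1 against each Kcnq1 probe, and of Kcnj16 against the first Kcnq1 probe, on the 9 arrays (both axes log2 intensity, red MSC, grey NP, numbers are replicates). NP replicate 1 sits with the MSC arrays for Kcnq1 and Kcne1 but with the NP arrays for Kcnj16.

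NP replicates 1 and 2 stood at opposite ends of the NP arrays for several transport genes. NP replicate 1 was the highest and NP replicate 2 the lowest NP array for Kcnq1 and Kcne1, for the sodium channel gene Scnn1b below, and for the markers of the intercalated cell, the acid-base cell of the collecting duct, whose mean centred log2 level was 0.21 on NP replicate 1 and -0.67 on NP replicate 2. In the estimate of array quality by limma these 2 arrays had the lowest weights, 0.339 and 0.296, against 0.869 to 2.17 for the others.

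The genes whose levels followed each channel most closely over the 9 arrays were, for Kcnj16, RGD1359310 (r 0.970) and the glucose-6-phosphatase gene G6pc3 (r 0.964). For Kcne1 they were Gp2 (r 0.993) and Capn6 (r 0.989), for Kcnj1 Dnajb2 (r 0.959) and an unnamed transcript (r 0.948), and for Kcnj15 an unnamed transcript (r 0.985) and Cul5 (r 0.984). Kcnq1 was followed by a pair of probes without a gene name (r 0.979 and 0.978) and Bsnd by Lrrc42 (r 0.909) and Fam195a (r 0.894). They are the highest of 13769 genes and are given as a description.

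The chloride channel genes other than Bsnd lay on both sides of 0. Of the 16 tested, 5 were higher and 11 lower, with a median of -0.085, and 1 was higher at an unadjusted p under 0.05, against 6.59% higher and 5.09% lower at that p among all 13769 genes and a median of -0.00595. That gene, Ano10, a member of the anoctamin family, differed by 0.28 (p 0.0476) with 1 probe and by -0.0019 with another. The p of its first probe was 0.0672 to 0.131 when NP replicate 1, 2 or 3 or MSC replicate 2, 3 or 4 was left out, and 0.0623 with the deposited log2 table, and with array weights the difference was 0.13 (p 0.179). The lowest p in the other direction was that of Clcn3, an intracellular chloride-proton exchanger, with -0.63 (p 0.0648) and 0.019 by its 2 probes. The first of these values was -0.85 (p 0.0067) without NP replicate 1 and -0.79 (p 0.0388) without MSC replicate 4.

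Among the other potassium channels few were measured. Of 11 other inward rectifier genes on the array 4 were tested, with 3 higher, 1 lower, 1 of them higher at an unadjusted p under 0.05 (against 6.59% of all genes higher and 5.09% lower) and a median of 0.022. Kcnj13, an inward rectifier of transporting epithelia, had levels of 8.79 to 9.47 (median 9.09) on the NP arrays and of 9.39 to 9.85 on the MSC arrays, overlapping at NP replicate 4. Its difference was 0.48 (SE 0.16, unadjusted p 0.0122, FDR 0.334 in limma), while Kcnj5, the only lower gene, differed by -0.039. None of the 8 other KCNQ and KCNE genes on the array passed the filter. Of 21 further tubular potassium channel genes on the array, such as the calcium-activated channels, 8 were tested, 5 higher and 3 lower, and 0 reached an unadjusted p under 0.05 in limma, with a median of 0.063. Over all genes 6685 of 13769 were higher. The lowest p in each direction belonged to Kcnk6, a leak potassium channel, with 0.17 (p 0.238), and to Kcnmb4, an accessory subunit of the calcium-activated channel, with -0.15 (p 0.254). Kcnk6 was 0.090 without NP replicate 3 and 0.10 without MSC replicate 4, and Kcnmb4 was -0.089 without NP replicate 1, -0.10 without MSC replicate 4 and -0.24 (p 0.0446) without NP replicate 4.

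Genes of the sodium transport that the channels support were mostly higher in MSC. The list also holds Slc12a7, a potassium-chloride cotransporter that carries no sodium. Of its 11 genes, 10 were higher and 1 lower, 7 of them higher at an unadjusted p under 0.05, against 6.59% of all genes, and the median was 0.31. The 7 became 4 without NP replicate 3 and 3 without MSC replicate 4. Scnn1b, a subunit of the epithelial sodium channel that drives potassium secretion through Kcnj1, had levels of 11.55, 10.34, 10.47, 10.98 and 11.31 on the NP arrays and of 11.85, 11.89, 11.77 and 12.09 on the MSC arrays, with no overlap. It differed by 0.97 (SE 0.24, unadjusted p 0.0022, FDR 0.334 in limma), and by 1.08 and 0.78 within the slides. Scnn1g, another subunit, differed by 0.61 (SE 0.20, p 0.0115), with 11.48 to 12.41 on the NP and 12.56 to 12.79 on the MSC arrays, again no overlap, and 0.80 and 0.32 within the slides. Slc12a3, the sodium-chloride cotransporter of the distal convoluted tubule, differed by 0.59 (p 0.0176) and Slc12a7 by 0.28 (p 0.0219), both with overlapping groups. A second probe gave 0.41 for Slc12a3 and 0.069 for Slc12a7. The only lower gene was Fxyd2, a regulatory subunit of the sodium pump, with -0.037 (p 0.752).

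Of the kinases, receptors and other regulators of these channels 13 were tested, 8 higher and 5 lower, with a median of 0.079, and 2 were higher and 1 lower at an unadjusted p under 0.05, against 6.59% higher and 5.09% lower among all genes. Hsd11b2, the enzyme that protects the mineralocorticoid receptor from glucocorticoids, differed by 0.63 (SE 0.21, p 0.0135). Cav1, the coat protein of caveolae, differed by 0.62 (SE 0.19, p 0.0101), with 0.34 within the first slide and 0.87 within the second. It was at 12.97 and 12.79 on MSC replicates 3 and 4, where the fat markers below were high too, and at 12.22 and 12.24 on MSC replicates 1 and 2. Oxsr1, a kinase of the WNK pathway, differed by -0.27 (SE 0.11, p 0.0363), and by -0.18 (p 0.111) without MSC replicate 4, its lowest array. None of the genes in these lists passed the FDR threshold.

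**Figure D4:**
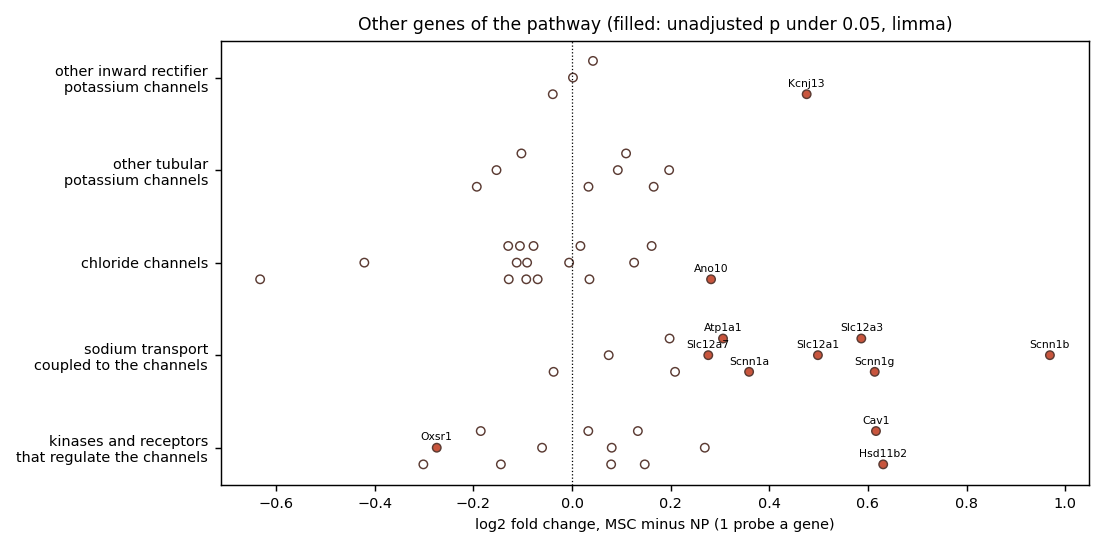
Difference between MSC and NP (horizontal axis, log2) of each tested gene of the pathway lists, 1 point a gene, read by the probe of largest variance. Filled and named points have an unadjusted p under 0.05 in limma. The sodium transport genes lie mostly to the right of 0, while the chloride channels lie on both sides with a median of -0.085.

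Markers of whole tubule segments also had mostly higher levels in MSC. Of the markers tested, 6 of 8 for the thick ascending limb, 6 of 7 for the distal convoluted and connecting tubule, 6 of 8 for the principal cell and 9 of 10 for the intercalated cell were higher in MSC, with medians of 0.24, 0.52, 0.28 and 0.66, and 2, 4, 3 and 7 of them at an unadjusted p under 0.05 (1 thick ascending limb marker was lower at that p). Over all genes, 6685 of 13769 were higher, with 6.59% higher and 5.09% lower at that p. For the proximal tubule 9 of 12 were higher, 2 of them at that p, with a median of 0.16. These lists share Slc12a1, Slc12a3, Scnn1b, Scnn1g and Hsd11b2, among others, with the pathway lists. The log2 of the summed level of the distal convoluted and connecting tubule markers was 15.62 to 17.05 on the NP and 16.94 to 17.09 on the MSC arrays, and that of the intercalated cell markers 15.18 to 16.07 and 16.09 to 16.42. Such sums add the intensities of different probes, so the brightest probes count most. The first of them is mostly Klk1, with means of 16.02 on the NP and 16.69 on the MSC arrays (unadjusted p 0.0577 in limma). Calb1, the next brightest, had means of 12.78 and 13.91. All 4 red cell genes tested were lower at an unadjusted p under 0.05, with a median of -1.71 and log2 sums of 17.64 to 18.59 on the NP and 14.13 to 18.09 on the MSC arrays. MSC replicates 1 and 3 were below every NP array in these sums, at 14.13 and 16.22, as was MSC replicate 4 by less, at 17.36. All 6 fat genes were higher, 2 of them at that p, with a median of 1.33 and sums of 13.10 to 13.89 on the NP arrays. The fat sums were 16.24 and 15.37 on MSC replicates 3 and 4, against 13.15 and 13.95 on MSC replicates 1 and 2. Podocyte markers, of the glomerular filter, were lower for all 5 tested, with a median of -0.33 and sums of 14.61 to 15.41 on the NP and 14.19 to 15.12 on the MSC arrays. MSC replicate 4 alone was below every NP array, with a mean centred log2 level of -0.95 against -0.0048 to 0.23 on the other MSC arrays. Leukocyte markers were higher for all 6 tested, with a median of 0.21 and sums of 16.52 to 17.23 and 16.84 to 17.36, and in neither of these lists did a gene reach an unadjusted p under 0.05. Higher in MSC were also 4 of 6 endothelial, 1 of 5 smooth muscle and pericyte, 4 of 5 mesenchymal stromal cell and 5 of 7 injured tubule markers, with medians of 0.049, -0.038, 0.25 and 0.27, and 1 mesenchymal stromal cell marker was higher at that p. The part of these cell types in the values of the channels and pathway lists was not tested.

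Promoters could be set beside the expression values for 6 of the 7 genes, with 7 RefSeq entries of 300 bases on build GRCr8, each around a transcript start. Kcnq1 has no entry. In all 5 short motifs were searched on both strands, TATAAA (the TATA box), GTTAAT (part of the site of the factor HNF1), CACGTG (an E-box), TGACGT (part of the cAMP response element) and TGTTCT (part of the glucocorticoid response element). Among 33469 promoters they were found in 14.2%, 7.45%, 6.42%, 7.94% and 20.7%, and among the 7 entries in 1, 0, 0, 0 and 3. For the genes at an unadjusted p under 0.05 that have an entry, 1 promoter each is shown, with matches in capitals, which do not overlap each other. The first of the 2 Kcnj1 entries, which is shown, held TATAAA and TGTTCT, the second held TGTTCT at 2 places on the other strand, and Kcnj16 and Kcne1 held none of these letters.
Kcnj1, chr8:39037742-39038041, plus strand: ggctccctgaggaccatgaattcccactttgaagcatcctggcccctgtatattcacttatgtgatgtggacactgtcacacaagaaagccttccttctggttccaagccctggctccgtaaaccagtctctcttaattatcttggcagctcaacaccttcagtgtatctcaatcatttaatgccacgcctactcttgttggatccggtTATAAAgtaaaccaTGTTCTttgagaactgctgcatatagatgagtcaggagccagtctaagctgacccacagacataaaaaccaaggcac
Kcnj16, chr10:96517074-96517373, plus strand: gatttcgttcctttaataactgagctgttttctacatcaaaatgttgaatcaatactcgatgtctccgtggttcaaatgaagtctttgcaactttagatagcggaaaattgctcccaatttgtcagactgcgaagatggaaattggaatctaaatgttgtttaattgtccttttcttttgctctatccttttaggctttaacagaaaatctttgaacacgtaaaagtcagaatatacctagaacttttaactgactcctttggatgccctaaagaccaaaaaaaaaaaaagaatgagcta
Kcne1, chr11:45076984-45077283, minus strand: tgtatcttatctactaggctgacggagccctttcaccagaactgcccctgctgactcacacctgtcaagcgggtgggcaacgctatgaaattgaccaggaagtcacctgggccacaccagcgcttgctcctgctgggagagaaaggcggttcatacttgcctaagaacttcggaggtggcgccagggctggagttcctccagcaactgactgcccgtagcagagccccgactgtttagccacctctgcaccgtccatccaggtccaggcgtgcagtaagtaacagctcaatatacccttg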

How the data were processed

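Renal RNA of 5 NP and 4 MSC kidneys was hybridized to 1-colour Agilent rat arrays, 1 kidney an array. The authors scanned them with an Agilent scanner and obtained the raw values with Agilent Feature Extraction. Deposited were the mean and median intensity of each spot, the local background intensity, a background-subtracted signal and a flag for spots well above background. They also deposited a table of normalized log2 values, which had r 0.9999 to 0.99997 with the values computed here. Another MSC array, which the study discarded, was not analysed here. No column of values per sample was left unused (0).

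The methods name neither the intensity column nor a background subtraction. Here the mean intensity without background subtraction was log2 transformed and normalized by cyclic loess in limma 3.58.1 (R 4.3.3). Spots flagged as outliers (273 to 593 per array) were left out and spots of a probe averaged. The methods' filter can be read in several ways. A probe was kept when its log2 value exceeded 1.1 times the 95th percentile of the log2 negative controls on at least 4 arrays (15635 of 30367 probes). MSC and NP were compared for each probe by limma's lmFit and eBayes, adjusting over all 15635 probes after Benjamini-Hochberg (FDR). A call needed more than a 1.5-fold change and an FDR under 0.05. The exact two-sided permutation test used all 126 splits of the arrays. For lists, each gene was read by its probe of largest variance (13769 genes). The steps were tested on simulated data. The number of arrays limits the precision.

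The channel genes and the lists were chosen with earlier results of these data known. Named are all probes of the 7 genes, in each pathway list the genes at an unadjusted p under 0.05 (up to 4) and the smallest p in each direction, and for each channel gene the 2 genes of highest r. Accessions of 9 of the 10 probes are in a GRCr8 list of RefSeq genes under the same symbol. Probe positions are those of the files, on rn4. The arrays were not treated as pairs by replicate number. By their deviations, MSC replicates 1 and 2 matched the NP array of the same number best, and MSC replicates 3 and 4 did not. Alternatives took other intensity columns, background corrections, normalizations, filters, probe choices, variance models, weights and blocks, single slides, the deposited log2 table, and left out each array. Some genes of the pathway lists are not reported here and were left out of their counts.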

Additional observations from a re-analysis of the deposited data

Results flagged for a closer look

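For the last of the 3 Kcnj1 probes, A_64_P395073, MSC replicate 4 stood apart from its group. Its level was 15.43, against 14.97, 15.04 and 14.96 on the other MSC arrays, and the gap to the next array was 0.8291 of the range of the group. Of 20 sets of values (10 probes in 2 groups) 1 had an array so far out, and chance gives about 1 in 20.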

How the results depend on the processing

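In all 28 alternative settings 0 channel probes were called by FDR and fold change. With the unadjusted p in place of the FDR, 1 (Kcne1) passed together with a fold change over 1.5 in the fit as reported. Over all probes, 2 were called with array weights and 4 on the second slide only. The 4 channel probes higher at an unadjusted p under 0.05 became 2 with median scaling, with the brightest probe per gene and on the second slide only, and 1 on the first slide only. They numbered 2 to 5 when arrays were left out in turn, with 2 without NP replicate 3, MSC replicate 2 or MSC replicate 4, and the lower ones 0 to 1 (Bsnd, without MSC replicate 4). Kcnj16 ranged from 0.18 to 0.41, the first Kcnq1 probe from 0.47 to 0.74 and Kcne1 from 0.52 to 0.86, with FDRs of 0.132 to 0.889 over these genes and settings, and none of the 3 changed sign. Kcnq1 was 0.43 with the mean of its probes and 0.32 with the brightest probe per gene, which is its second probe. Kcnj1 took 0.13 (p 0.302) with the mean of its probes and -0.026 with the brightest probe per gene, which is its last probe. That last probe took 0.0012 on the second slide only and -0.13 to 0.059 when arrays were left out, with 0.059, 0.0026, 0.016 and 0.021 without NP replicate 2, NP replicate 4, MSC replicate 1 and MSC replicate 3. Kcnj15 ranged from -0.0092 to 0.28 when arrays were left out and was 0.48 with the background-subtracted and detrended signal, and Bsnd was 0.047 on the second slide only. Why these values moved was not tested.

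The settings for the pathway genes were chosen after seeing the data. The 7 sodium transport genes became 3 with median scaling, 2 on the first slide only and 3 on the second slide only, and 3 to 7 when arrays were left out (4 without NP replicate 3 and 3 without MSC replicate 4). Kcnj5 was 0.13 on the first slide only and -0.099 to 0.019 when arrays were left out, with 0.019 without MSC replicate 3 and 0.017 without MSC replicate 4. Fxyd2 was 0.13 on the first slide only and -0.098 to 0.043 when arrays were left out, with 0.043 without NP replicate 4. With the brightest probe per gene, Ano10 was -0.0019. The other genes named from the pathway lists kept their sign in every setting, but not their size. With the background-subtracted and detrended signal Kcnj13 was 0.90 and Slc12a7 0.56. With array weights Kcnj13 was 0.30 (p 0.0522) and Oxsr1 -0.17 (p 0.135). With the mean of probes per gene Ano10 was 0.14, Clcn3 -0.31 and Slc12a7 0.17, and Scnn1g had p 0.0726 with median scaling.

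Same-numbered NP and MSC arrays had r 0.20, 0.32, -0.35 and 0.05 for their deviations. With the replicate number as a block (replicate block), 4 channel probes were higher at an unadjusted p under 0.05, 0 were lower and 0 called, and Kcnj16 differed by 0.35. Signals close to background limit Kcnj10.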
